A study of Chlamydomonas reinhardtii with 12 samples.

Results

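Genes that rose early in dark anoxia and stayed up are described here across cultures of the green alga Chlamydomonas reinhardtii. A gene model was a member when its level was above light oxic culture at both 0.5 h and 6 h of dark anoxia in each of 4 strains, when both mean responses were at least 1 log2 unit, and when the mean 6 h minus 0.5 h difference lay between -1 and 1. The rule was applied to log2(RPKM + 1) of models whose mean reached 1 RPKM (reads per kilobase of model, scaled by the reads of the library), and it found 203 members among 14306 such models and 17301 in all. RNA sequencing was done on 12 samples, 1 for each strain and stage. The strains were the copper response mutant crr1, the mutant carrying the transgene named crr1dCys, crr1:CRR1, in which CRR1 was returned to the mutant, and the wild type CC-124, and the first 3 share the crr1 mutant background. The stages were light oxic culture, 0.5 h dark anoxic and 6 h dark anoxic, and in the dark stages aliquots of the acetate-fed, light-grown culture stood in sealed bottles in a dark room. Light and air were removed together, so their parts cannot be told apart. The labels give neither the promoter of either transgene nor the number of independent clones.

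Chlamydomonas is a soil alga that meets darkness and lack of oxygen together, for example at night in dense cultures. In this state it is known to stop photosynthesis and respiration, to break down starch, to ferment pyruvate to formate, acetate, ethanol and hydrogen, and to raise transcripts for the enzymes of these routes within the first hour. CRR1 is a transcription factor of the SBP family that is known as the regulator of the copper deficiency response and of part of the hypoxia response. The name crr1dCys refers to CRR1 that lacks its cysteine-rich C-terminal part. A transcript that rises early and stays up differs in course from one that peaks and declines and from one that is raised only after hours, and the members were chosen for the first of these courses.

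The columns rested on 12001000 to 18894000 reads, inferred from the steps between low values. 8 samples had 2 columns, from series labelled TS1, TS2 or TS4 in the column names. For crr1:CRR1 at 6 h the TS4 column stood apart from its TS1 partner, with r = 0.839 across the 14306 models against 0.981 to 0.991 in the 7 other pairs, and the rule left it out. Among the members, 80 of 203 differed by 1 log2 unit or more between those 2 columns, against 3 to 12 in the other pairs. CC-124 has TS2 columns only, so strain and series are partly joined. No gene name is paired with any identifier in the sources used here, so members are given by model identifier and no function is assigned to them. In bulk RNA, more transcript per cell and more cells with the transcript cannot be told apart.

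The typical member had a low to middling level in the light and a level several times higher in the dark. The median over the 203 members of the mean level was 4.84 RPKM in light oxic culture, 18.1 RPKM at 0.5 h and 19.1 RPKM at 6 h. Over all 14306 models the medians were 6.55, 6.54 and 6.496 RPKM. In the light 5 members had a mean over 100 RPKM, and at 0.5 h and 6 h there were 24 and 20. The median of the mean response was 1.51 log2 units at 0.5 h and 1.59 at 6 h, and 45 members had an average of both responses of at least 2. These values are a description, because the members were chosen by these same responses.

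**Figure D1:**
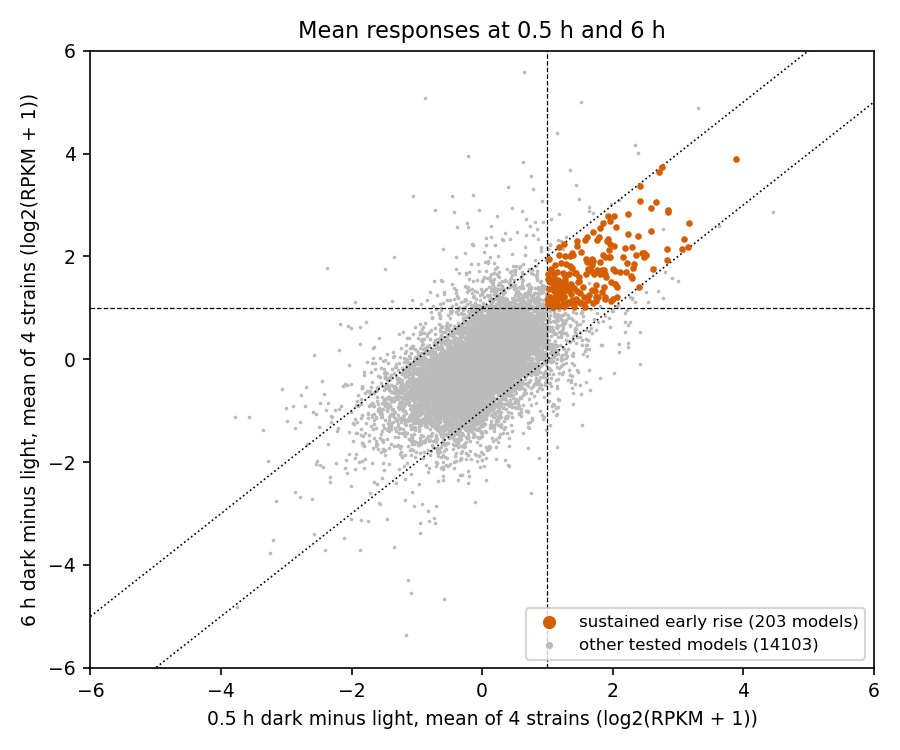
Mean response of each gene model at 0.5 h (horizontal axis) and 6 h (vertical axis), as dark minus light in log2(RPKM + 1) over 4 strains. The 203 members (orange) fill the corner above 1 on both axes (dashed lines) and between the dotted lines at a difference of 1 and -1, beside 14103 other tested models (grey).

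All 203 members passed a limma test of 0.5 h against light oxic culture, with strain as a block, at an adjusted p below 0.05 and a log2 fold change of at least 1. In that comparison 3.43% of the 14306 models were called higher. All 203 were also called higher at 6 h, where the share over all models was 5.07%. The rule used both contrasts, so nothing is read from these counts. Strains are the replicates of a stage, so these p-values rest on how the difference between stages varied over strains. With 1 sample per strain and stage, the spread between cultures of 1 strain cannot be told apart from it. In 169 members every 0.5 h level lay above every light oxic level over the 4 strains, as in 14.1% of all models. For 6 h the count was 149, against 12.6%, and in 144 members all 8 dark levels lay above all 4 light levels, against 5.24%. In the other 59 the light level of 1 strain reached a dark level of another.

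The members nearest to each threshold are given with the nearest models outside it. Cre15.g634750.t1.2 and Cre07.g320750.t1.2 were just inside, with mean 0.5 h responses of 1.0025 and 1.003, and Cre01.g035050.t1.1 and Cre16.g683000.t1.1 were just outside, both at 0.99. At 6 h the nearest members were Cre08.g381150.t1.1 at 1.01 and Cre04.g228050.t1.2 at 1.02, against 0.99 for Cre07.g335350.t1.2 and 0.98 for Cre14.g611551.t1.2 outside. Cre10.g442800.t1.2 and Cre18.g751050.t1.2 had a 6 h minus 0.5 h difference of 0.997 and 0.980, against 1.01 and 1.05 for Cre17.g713700.t1.2 and Cre12.g518800.t1.1 outside. At the other end stood Cre03.g177450.t1.2 at -0.996 and Cre09.g391450.t1.1 at -0.96, against -1.02 and -1.03 for Cre01.g056200.t1.2 and Cre09.g409650.t1.1 outside. The lowest strain response inside was 0.01 in Cre13.g584200.t1.1, and the highest one outside among models that met all else was -0.18 in Cre12.g541450.t1.1, followed by -0.20 in Cre02.g126083.t1.1. The members with the lowest mean level were Cre12.g549650.t1.1 at 1.68 RPKM and Cre14.g617200.t1.2 at 1.73 RPKM, and no model under 1 RPKM met all other conditions.

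Cre13.g603550.t1.1 had the largest average response. In crr1, crr1dCys, crr1:CRR1 and CC-124, in this order here and in the lists that follow, it stood at 10.9, 7.35, 9.84 and 4.78 RPKM in the light. At 0.5 h the levels were 109, 103, 96.8 and 270 RPKM, and at 6 h they were 97.2, 86.1, 158 and 226 RPKM. Among the samples used by the rule, CC-124 was lowest in the light and highest at both dark stages. The 6 h TS4 column of crr1:CRR1 held 533 RPKM, above CC-124. The mean response was 3.89 log2 units at 0.5 h (SE 0.35) and 3.90 at 6 h (SE 0.35).

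Cre11.g473950.t1.1 and Cre17.g730100.t1.2 had 6 h levels well above their 0.5 h levels in CC-124 and in the TS1 column of crr1:CRR1. Cre11.g473950.t1.1 had 3.34, 7.36, 5.20 and 4.67 RPKM in light oxic culture, 26.3, 47.9, 41.3 and 43.2 RPKM at 0.5 h, and 37.2, 47.0, 152 and 144 RPKM at 6 h. Its 2 strains with full-length CRR1 thus stood above crr1 and crr1dCys at 6 h, but in the TS4 column of crr1:CRR1 it had only 2.14 RPKM. Cre17.g730100.t1.2 had 1.52, 1.24, 1.53 and 3.79 RPKM in light oxic culture, 17.2, 17.0, 13.9 and 24.2 RPKM at 0.5 h, and 9.30, 23.9, 54.3 and 113 RPKM at 6 h. In the 6 h TS4 column of crr1:CRR1 it had 12.7 RPKM, below the 0.5 h level of that strain. The comparison of responses that follows used the TS1 column alone for crr1:CRR1 at 6 h. The crr1 response at 6 h was 1.62 log2 units below the mean of both full-length strains for the first model and 2.47 below it for the second, with limma adjusted p-values of 0.549 and 0.15.

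Cre03.g191300.t1.1 showed the most even response of the 10 leaders. It had 4.90, 3.24, 3.88 and 10.3 RPKM in light oxic culture, 30.2, 21.2, 25.7 and 60.6 RPKM at 0.5 h, and 64.7, 49.6, 45.3 and 104 RPKM at 6 h. CC-124 was highest at each stage, and yet the 0.5 h responses of the 4 strains lay between 2.39 and 2.45 log2 units. The mean difference from 0.5 h to 6 h was 0.95 log2 units. Cre06.g271900.t1.1 was the next most even, at 12.4, 13.2, 8.34 and 5.21 RPKM in light oxic culture, 88.9, 91.3, 56.4 and 35.8 RPKM at 0.5 h, and 92.5, 108, 89.0 and 59.0 RPKM at 6 h.

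Among the samples used by the rule, CC-124 was the lowest strain at both dark stages in 6 of the 10 leaders, with Cre06.g271900.t1.1 as 1 of them. Cre06.g310950.t1.1 had 3.93, 6.95, 3.24 and 1.02 RPKM in light oxic culture, 49.8, 41.1, 46.0 and 7.68 RPKM at 0.5 h and 71.8, 45.2, 81.8 and 2.27 RPKM at 6 h. Its CC-124 level at 6 h lay below the light level of every other strain. Cre10.g426100.t1.1 had 23.3, 24.03, 28.5 and 5.10 RPKM at 6 h, against 1.19, 2.39, 1.074 and 1.12 RPKM in the light. Cre01.g029250.t1.1 had 58.6, 39.2, 59.1 and 10.0 RPKM at 6 h, against 4.88, 6.09, 3.23 and 1.60 RPKM in the light. Cre02.g118100.t1.1 had 51.6, 39.1, 62.1 and 22.0 RPKM at 6 h, against 5.90, 5.13, 4.91 and 1.43 RPKM in light oxic culture, and its strain responses were close to each other all the same, at 2.70 to 3.42 log2 units. The sixth, Cre16.g668700.t1.1, averaged 2.43 ± 1.266 RPKM in light oxic culture, 30.9 ± 13.2 RPKM at 0.5 h and 21.9 ± 12.4 RPKM at 6 h (SD, n = 4 strains), and was lower at 6 h than at 0.5 h in all 4 strains. The 6 h TS4 column of crr1:CRR1 held 4.99 RPKM of it, below the 9.45 RPKM of CC-124. For Cre02.g118100.t1.1 that column held 15.9 RPKM, also below CC-124, with a response of 1.51 log2 units. In the others of the 6 it stood above CC-124.

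**Figure D2:**
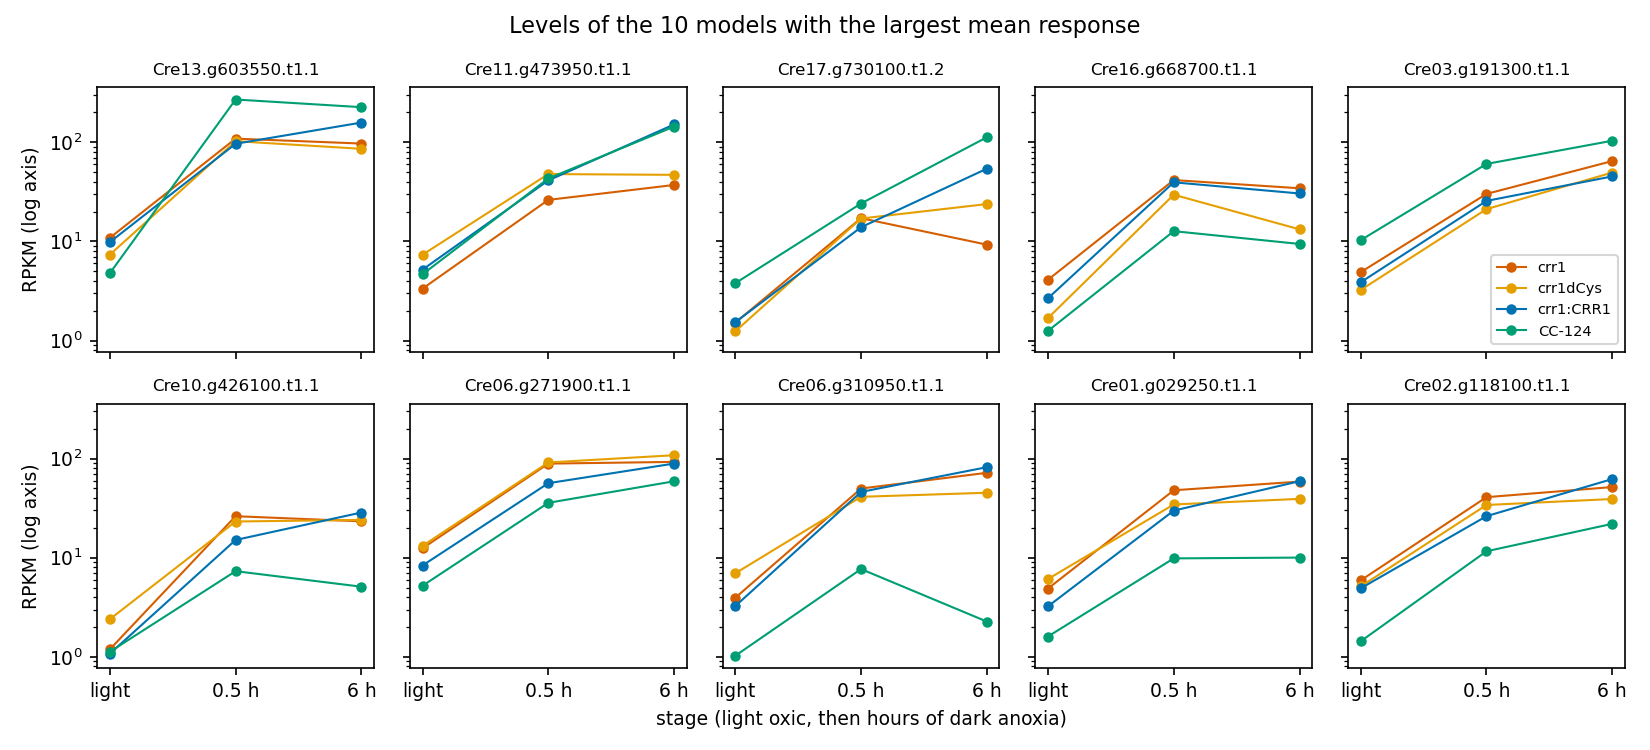
RPKM (log axis) of the 10 members with the largest average response in light oxic culture and after 0.5 h and 6 h of dark anoxia, 1 line per strain and 1 point per sample. Every line is higher at both dark stages than in the light, and the CC-124 line of Cre06.g310950.t1.1 drops to 2.27 RPKM at 6 h while the other strains, with crr1:CRR1 in its TS1 column, stay at 45.2 RPKM or more.

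The 5 most abundant members in the dark carried large transcript pools and smaller fold changes. Cre13.g579450.t1.2 had 333, 301, 378 and 422 RPKM in light oxic culture, 1020, 816, 916 and 874 RPKM at 0.5 h, and 1677, 1424, 1495 and 728 RPKM at 6 h. At 6 h CC-124 was below its own 0.5 h level, and so was crr1:CRR1 in its TS4 column, at 262 RPKM. Cre07.g349200.t1.1 was lower at 6 h than at 0.5 h in all 4 strains, with 262, 195, 264 and 244 RPKM in light oxic culture, 1346, 926, 1051 and 876 RPKM at 0.5 h, and 1045, 901, 1011 and 397 RPKM at 6 h. Cre02.g107200.t1.2 had 466, 399, 347 and 183 RPKM at 6 h against 133, 110, 118 and 117 RPKM in the light. In these 3 models the 4 light levels were close together and CC-124 had the smallest 6 h response among the samples used by the rule. In the TS4 column of crr1:CRR1 the 6 h response was -0.52 log2 units for Cre13.g579450.t1.2 and 0.01 for Cre07.g349200.t1.1, below the 0.78 and 0.70 of CC-124, and 2.17 for Cre02.g107200.t1.2, above the 0.64 of CC-124. Cre01.g044800.t1.1 differed from them, since CC-124 had its highest 6 h level, with 727, 535, 777 and 926 RPKM at 6 h against 319, 327, 292 and 389 RPKM in the light. In Cre10.g424583.t1.1 the CC-124 level was lowest throughout, with 447, 439, 487 and 211 RPKM at 6 h against 141, 155, 104 and 34.5 RPKM in light oxic culture, while its CC-124 response of 2.58 log2 units was the largest of the 4.

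The size of the response varied between strains. In 74 members each of the 8 strain responses was at least 1 log2 unit, and in 10 members each was at least 2. Those 10 were 8 of the 10 leaders together with Cre03.g185250.t1.1 and Cre02.g074200.t1.1. Cre03.g185250.t1.1 averaged 25.2 ± 8.27 RPKM in light oxic culture, 133 ± 30.3 RPKM at 0.5 h and 138 ± 51.7 RPKM at 6 h (SD, n = 4 strains). Cre02.g074200.t1.1 averaged 1.59 ± 0.757 RPKM in light oxic culture, 15.2 ± 6.19 RPKM at 0.5 h and 14.7 ± 7.40 RPKM at 6 h (SD, n = 4 strains). The range over strains of a member's response had a median of 0.66 log2 units at 0.5 h and 1.01 at 6 h, beside 0.47 and 0.55 over all models. At 0.5 h the responses of the 203 members had r = 0.815 to 0.876 between the 3 strains of crr1 background and 0.419 to 0.495 between these and CC-124. At 6 h the values were 0.665 to 0.789 and 0.230 to 0.334. Over all models the same split was seen, with 0.858 to 0.922 and 0.659 to 0.742 at 0.5 h, and 0.826 to 0.896 and 0.628 to 0.762 at 6 h. These correlations are across members, which share the libraries of a strain, and all members were required to be above 0.

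**Figure D3:**
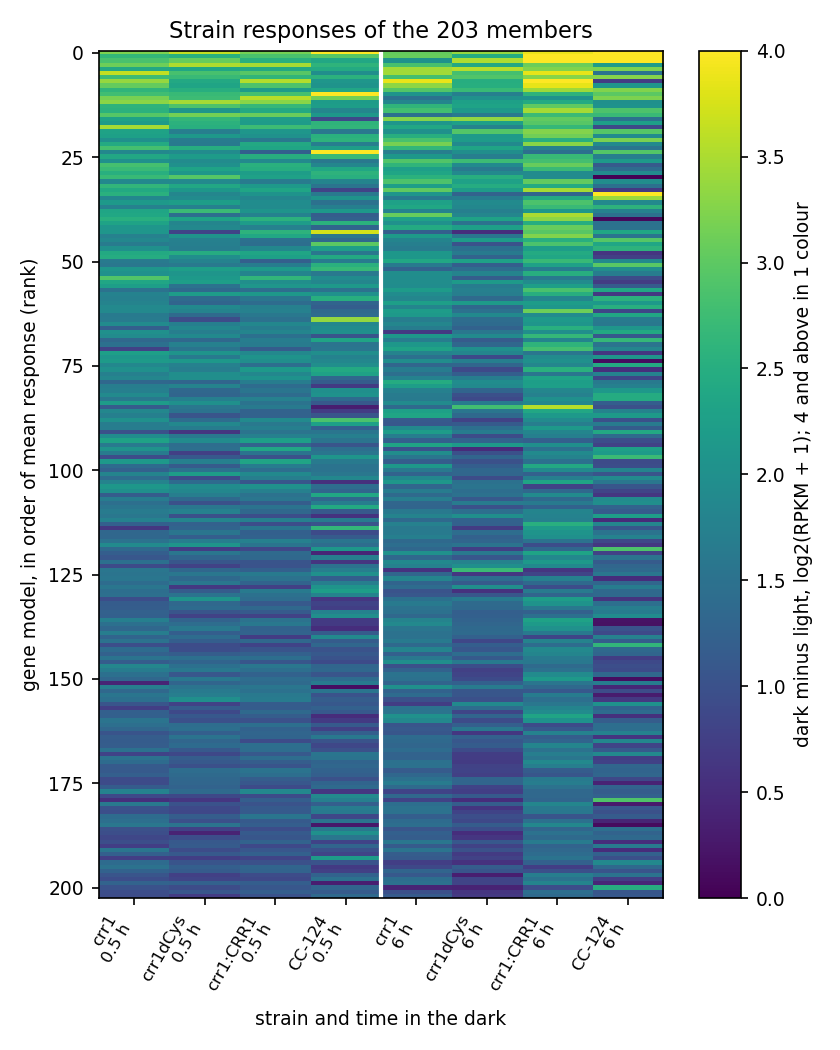
Strain responses of the 203 members (rows, in order of mean response) at 0.5 h and 6 h (columns), as dark minus light in log2(RPKM + 1). The crr1:CRR1 column at 6 h is the brightest, with a median of 1.88 log2 units, and rows differ more between strains at 6 h than at 0.5 h.

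The widest ranges belonged to Cre16.g679750.t1.1, Cre06.g310950.t1.1 and Cre11.g477550.t1.1. Cre16.g679750.t1.1 had 0.0264, 0.0262, 0 and 0.708 RPKM in light oxic culture, 2.69, 2.95, 1.41 and 54.4 RPKM at 0.5 h and 2.38, 3.49, 1.79 and 12.01 RPKM at 6 h. It was thus high in CC-124 and low elsewhere at both dark stages, and its light columns held between 0 and 11 reads. Cre11.g477550.t1.1 had 72.7, 52.3, 88.8 and 13.0 RPKM at 6 h, against 14.1, 9.61, 8.07 and 12.1 RPKM in light oxic culture, so that CC-124 was near its light level at 6 h. At 0.5 h CC-124 had 30.2 RPKM of this model, and the other strains had 51.7 to 85.3 RPKM.

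Within the bound set by the rule, the course from 0.5 h to 6 h went both ways. The mean was higher at 6 h in 119 members, as in 46.3% of all models, and lower in 84, and in 140 members the difference was under 0.5 log2 units in size. With limma at an adjusted p below 0.05, 35 members were higher and 28 lower at 6 h than at 0.5 h, where 19.5% and 24.1% of all models were called. The rule bounded this contrast, so nothing is read from the counts. 36 members in all were called when crr1:CRR1 was left out, 38 without crr1, 9 with the TS2 columns alone and 18 without strain as a block. By strain, 113 members were higher at 6 h than at 0.5 h in crr1, 71 in crr1dCys, 159 in crr1:CRR1 and 97 in CC-124. The shares of all models were 58.3%, 37.3%, 43.7% and 49.0% in the same order. The same direction in all 4 strains was seen upward in 37 members and downward in 26, beside 23.2% and 28.1% of all models. At 6 h crr1:CRR1 had the largest response of the 4 strains in 116 members, or 57.1%, against 17.8% of all models and 45.5% of the 725 models called higher at 6 h. That value comes from its TS1 column alone. Among members at the edge, Cre18.g751050.t1.2 had 60.3, 51.7, 74.97 and 33.4 RPKM at 6 h, against 20.4, 36.5, 23.3 and 27.4 RPKM at 0.5 h. In the opposite direction, Cre03.g177450.t1.2 had 8.89, 9.04, 6.505 and 3.62 RPKM at 6 h, against 18.3, 18.4, 14.2 and 8.36 RPKM at 0.5 h. The 6 h TS4 column of crr1:CRR1 went the other way in both. It held 3.98 RPKM of Cre18.g751050.t1.2, below the 0.5 h level, and 19.96 RPKM of Cre03.g177450.t1.2, above it.

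Although the rule compared each strain only with itself, the members' levels differed between the wild type and the strains of crr1 background. CC-124 was lower than the mean of the other 3 strains over the 3 stages in 58 members and higher in 13 (limma, adjusted p below 0.05 and at least 1 log2 unit). Over all models 3.99% were lower and 3.49% higher, against 28.6% and 6.40% of the members. With a pseudocount of 5 in place of 1 the counts were 27 and 7, beside 1.80% and 1.41% of all models. The median difference, CC-124 minus the others, was -0.52 log2 units in the members and 0.12 over all models, and it was above 0 in 48 members, or 23.6%, against 61.2% of all models. CC-124 had the lowest light oxic level of the 4 strains in 131 members, or 64.5%, where 35.9% of all models had it lowest. The rule used each light level as the baseline of a response above 0, so light levels are not free of the choice of members. Whether this bears on the CC-124 shares was not tested. The shares at 0.5 h and 6 h were 65.5% and 65.0%, against 26.0% and 27.2%, and 94 members had CC-124 lowest at all 3 stages, or 46.3%, against 14.1% of all models. The median light level of the members was 5.37 RPKM in crr1, 5.69 in crr1dCys, 4.89 in crr1:CRR1 and 3.69 in CC-124. With the TS2 columns alone, which hold crr1 in the light and at 6 h, crr1dCys, and CC-124 but not crr1:CRR1, 54 members were lower and 13 higher in CC-124, beside 4.45% and 3.67% of all models. Stages of 1 strain are not independent cultures of it, so the test takes the 3 stages for replicates of a strain.

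**Figure D4:**
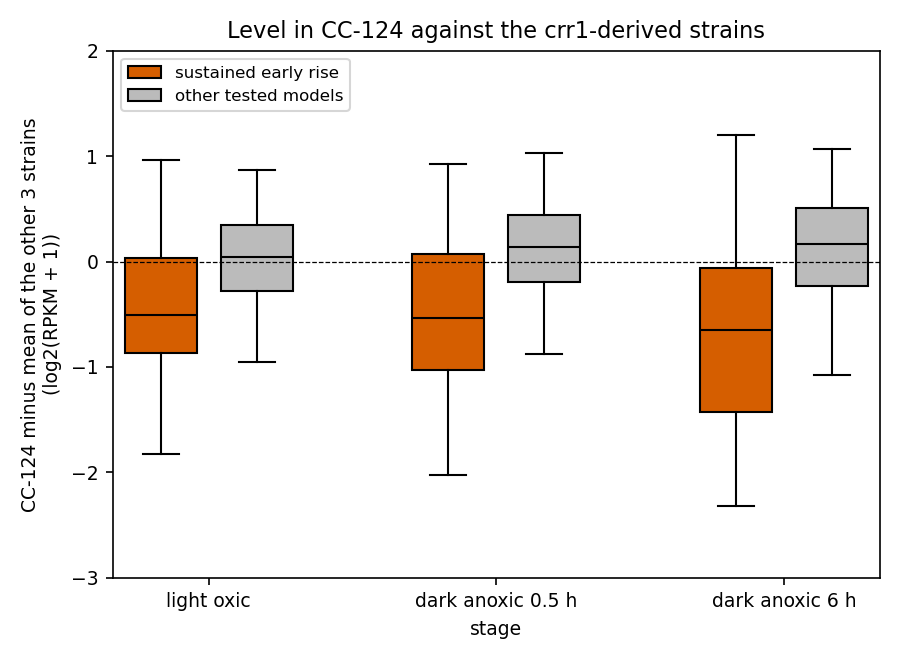
Level in CC-124 minus the mean of the 3 strains of crr1 background, in log2(RPKM + 1), for the 203 members (orange) and 14103 other tested models (grey) at each stage. Boxes span the quartiles with the median as a line and whiskers reach the 5th and 95th percentiles, and the members' medians of -0.51, -0.54 and -0.65 lie below 0 at all 3 stages.

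Cre17.g707750.t1.1 was the member with the largest strain difference. It had 11.6, 6.93, 11.7 and 0.488 RPKM in light oxic culture, 61.0, 48.9, 58.4 and 1.73 RPKM at 0.5 h and 120, 79.3, 103 and 3.19 RPKM at 6 h. CC-124 in the dark did not reach the light level of the other strains, and the difference was -3.94 log2 units (SE 0.25, limma adjusted p = 1.47e-06). Cre07.g353250.t1.1 had 42.1, 31.0, 44.4 and 4.35 RPKM at 6 h, against 10.7, 15.8, 10.0 and 1.36 RPKM in light oxic culture, a difference of -2.76 (SE 0.18, limma adjusted p = 1.77e-06). Cre16.g667950.t1.1 had 40.4, 42.7, 58.6 and 3.91 RPKM at 6 h, against 14.6, 22.9, 20.8 and 2.69 RPKM in light oxic culture, a difference of -2.60 (SE 0.19, limma adjusted p = 3.75e-06). In the opposite direction, Cre01.g013450.t1.1 had 2.40, 1.45, 3.67 and 45.2 RPKM at 6 h, against 0.983, 0.727, 0.888 and 5.21 RPKM in light oxic culture, and CC-124 was 2.73 log2 units higher (SE 0.28, limma adjusted p = 3.9e-05). For the 3 models lower in CC-124, the 6 h TS4 column of crr1:CRR1 held 3.18, 5.40 and 2.19 RPKM, near the CC-124 levels. Cre09.g391450.t1.1 was also higher in CC-124, at 9.97, 13.8, 8.53 and 87.3 RPKM at 6 h. For Cre01.g013450.t1.1 and Cre09.g391450.t1.1 the 6 h TS4 column of crr1:CRR1 held 1.09 and 0.38 RPKM, far below the CC-124 levels.

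Risers of another course are given beside the members for this strain difference. Of 144 models that rose at 0.5 h and had lost 1 log2 unit or more by 6 h, CC-124 was lower in 12 and higher in 10. Of 223 models that rose by 6 h and had gained 1 log2 unit or more since 0.5 h, it was lower in 27 and higher in 31. As shares, CC-124 was lower in 28.6% of the members, 8.33% of the transient risers and 12.1% of the late risers. The difference between these shares was not tested. The classes are not built alike, since the other classes asked for a rise in each strain at 1 time only and the members at both. In 15 of the 144 and 20 of the 223, all conditions for members were met except the bound on the difference. Median light levels also differed between the classes, at 4.84, 13.3 and 4.27 RPKM in the same order.

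The size of the response itself differed in CC-124 for few members, within the limit that the rule asked for a response above 0 in each strain. At 0.5 h 4 members responded more and 2 less in CC-124 than in the mean of the other strains (limma interaction, adjusted p below 0.05), beside 1.34% and 0.126% of all models. CC-124 has 1 sample per stage here, so the spread in this test comes from the other 3 strains, which share a background, and CC-124 is assumed to vary like them. At 6 h 6 responded more and 11 less, beside 1.04% and 1.10%. At an unadjusted p under 0.05, 25 members responded more and 23 less at 0.5 h, beside 9.51% and 4.02%, and 25 responded more and 56 less at 6 h, beside 1713 and 1136 of the 14306 models, where 1136 is 7.94%. The numbers depended on single strains and columns. The count of 6 at 0.5 h became 0 without crr1, 1 without crr1dCys and 1 with the TS4 column of crr1:CRR1 put back. The 17 at 6 h became 1 without crr1, 7 without crr1dCys, 28 without crr1:CRR1, 2 with that TS4 column and 39 with the TS2 columns alone. Cre16.g679750.t1.1 had the largest early difference, CC-124 minus the others, of 3.35 log2 units (SE 0.29, limma adjusted p = 0.00308). Cre13.g603550.t1.1 followed with 2.21 (SE 0.37, limma adjusted p = 0.0216) and Cre13.g569500.t1.1 with 1.99 (SE 0.33, limma adjusted p = 0.0199). For Cre16.g679750.t1.1 the light levels were 0.708 RPKM in CC-124 and 0.0264 RPKM or less in the other strains. All were under the 1 added before the log, so the size of its difference depends on that added value. A larger fold rise of RPKM in CC-124 is not read from it. In Cre13.g569500.t1.1 the 0.5 h levels met, at 58.3, 60.8, 49.8 and 63.1 RPKM, against 17.7, 31.4, 17.0 and 5.28 RPKM in the light. The smaller CC-124 responses at 0.5 h were -1.52 (SE 0.23, limma adjusted p = 0.0149) for Cre17.g707750.t1.1 and -1.46 (SE 0.27, limma adjusted p = 0.0325) for Cre08.g373200.t1.1. Cre08.g373200.t1.1 had 17.3, 15.7, 15.1 and 3.07 RPKM at 0.5 h, against 4.58, 4.71, 4.45 and 2.67 RPKM in the light. For Cre17.g707750.t1.1 the CC-124 light level was 0.488 RPKM, under the 1 added before the log. Its CC-124 response is lowered by that added value, so its low level and its small response are not separate results.

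At 6 h the most negative differences of response, CC-124 minus the others, were -2.89 log2 units (SE 0.56, limma adjusted p = 0.038) for Cre06.g310950.t1.1 and -2.54 (SE 0.39, limma adjusted p = 0.0192) for Cre11.g477550.t1.1. Cre13.g584200.t1.1 had 11.4, 4.37, 11.7 and 5.34 RPKM in light oxic culture, 78.7, 40.3, 62.5 and 35.6 RPKM at 0.5 h, and 72.9, 29.8, 47.5 and 5.38 RPKM at 6 h. In CC-124 this model was back at its light level, and in the TS4 column of crr1:CRR1 it stood at 5.31 RPKM, or 1.01 log2 units below light. Without that column the CC-124 difference was -2.32 (SE 0.29, limma adjusted p = 0.00852). Cre07.g342800.t1.2 had 19.9, 16.6, 21.7 and 1.64 RPKM at 6 h, against 1.58, 2.66, 1.06 and 0.662 RPKM in light oxic culture, a difference of -2.23 (SE 0.41, limma adjusted p = 0.0321). Upward stood Cre07.g334150.t1.2, with 10.9, 21.9, 6.95 and 33.2 RPKM at 6 h against 1.58, 7.11, 2.24 and 0.913 RPKM in light oxic culture, a difference of 2.60 (SE 0.33, limma adjusted p = 0.00882). In the TS4 column the 6 h responses of crr1:CRR1 were 0.96 log2 units for Cre06.g310950.t1.1, 3.82 for Cre11.g477550.t1.1, 2.18 for Cre07.g342800.t1.2 and -0.64 for Cre07.g334150.t1.2.

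Whether the members' rise depended on CRR1 was asked by setting the response of crr1 against the mean of crr1:CRR1 and CC-124. With limma 0 members were called at 0.5 h and 0 at 6 h, where 0 and 2 of all 14306 models were called, the 2 being 0.0140%. At an unadjusted p under 0.05 there were 2 higher and 1 lower member at 0.5 h, beside 0.447% and 2.18% of all models. At 6 h there were 1 higher and 9 lower, beside 1.37% and 1.17%. This test had 1 crr1 sample per stage and 2 residual degrees of freedom, so large differences can go without a call. The median difference over the members was 0.13 log2 units at 0.5 h and 0.02 at 6 h, and the estimate was above 0 in 121 and 104 members, or 59.6% and 51.2%, beside 32.0% and 49.4% of all models. Its range was -1.45 to 1.17 and -2.47 to 1.58. By the rule each member rose in crr1 at both times, with a response of at least 0.42 log2 units.

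The 6 h TS4 column of crr1:CRR1 took no part in choosing the members. In it 164 of the 203 members, or 80.8%, lay above the light oxic level of crr1:CRR1, against 52.9% of all models, and 130 were at least 1 log2 unit above, against 13.8%. At least 1 log2 unit below were 15 members, against 18.8% of all models. The light oxic sample is the one the rule used. The median was 1.48 log2 units in the members and 0.08 over all models, and the TS1 column, which the rule used, gave 1.88 in the members. 39 members were below the light level in TS4, and 33 were 2 log2 units or more below their TS1 value. Among the leaders, Cre13.g603550.t1.1 reached 533 RPKM in TS4 and Cre03.g191300.t1.1 180 RPKM, above their TS1 values of 158 and 45.3 RPKM. Cre11.g473950.t1.1 and Cre06.g310950.t1.1 had 2.14 and 6.84 RPKM in TS4, below the 152 and 81.8 RPKM of TS1. With both columns averaged, 185 of the 203 were called higher at 6 h and 178 met the rule.

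**Figure D5:**
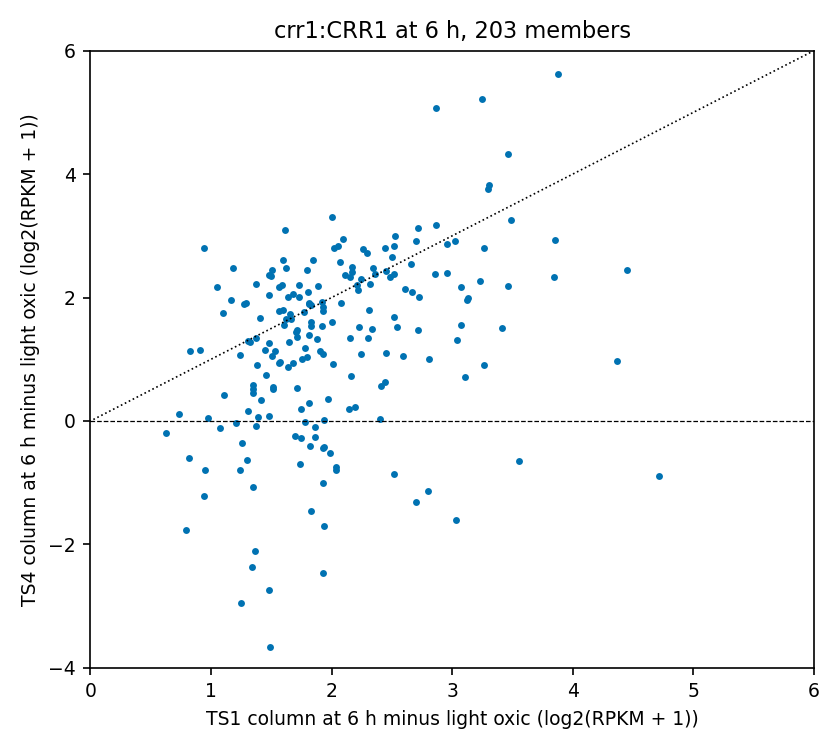
Responses of the 203 members in crr1:CRR1 at 6 h, as dark minus light in log2(RPKM + 1), in the TS1 column (horizontal axis) and in the TS4 column left out of the rule (vertical axis). The dotted line marks equal values, and 39 points lie below the dashed line at 0.

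Model length and neighbourhood were the properties that could be read without gene names. Lengths were inferred from the steps of the values, for 200 members and 12834 models in all. The median was 2439 bases in the members, with quartiles of 1799 and 3280 bases, and 2236 bases over all models, with quartiles of 1493 and 3343 bases. The most abundant members included short models, at 881 bases for Cre07.g349200.t1.1 and 833 bases for Cre02.g107200.t1.2. At these lengths the poorest light oxic column of a member held a median of 91 reads, and 13 members had a light column of under 10 reads.

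In the RefSeq order of genes, 149 of the 203 members had a matching locus tag, and 4 pairs of members stood next to each other. These 8 members are 5.37% of the 149. Members are 1.36% of all matched tested models, and a member can have a neighbour on either side. Whether the pairs exceed the number from a random order was not tested. The pairs were named after their values were seen. Cre06.g296700.t1.1 averaged 30.6 RPKM in light oxic culture, 227 RPKM at 0.5 h and 132 RPKM at 6 h, and its neighbour Cre06.g296750.t1.1 averaged 4.21 RPKM, 32.6 RPKM and 26.5 RPKM at these stages. Both thus peaked at 0.5 h, with responses of 3.06 and 2.83 log2 units, and had the same 6 h response of 2.14. Cre12.g487950.t1.2 and Cre12.g487900.t1.1 had 6 h responses of 1.03 and 1.071. Cre08.g381150.t1.1 and Cre08.g381200.t1.1 had 6 h responses of 1.01 and 1.51. In the last pair, Cre01.g013450.t1.1 and Cre01.g013500.t1.1, the responses at 0.5 h were 1.03 and 2.36, with an SD over strains of 0.55 and 0.22. No pair had overlapping gene spans in RefSeq. Of the 224 tested models that flank members and are not members, 5.80% had a mean 0.5 h response of at least 1, against 3.40% of all matched models, and 6.25% had such a 6 h response, against 4.83%.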

How the data were processed

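Total RNA of 12 culture samples was sequenced on the Illumina platform, per the labels' protocols. The authors deposited 1 table of 17301 gene models in 20 columns, whose values were read as RPKM from the values themselves, since no header names the unit. Bowtie is named per the submitters' processing notes. The genome build, annotation, counting and strand setting: not given in the sources used here. Overlapping or near-identical models are therefore uncertain. Columns were matched to samples by name, with the abbreviations of crr1:CRR1 and crr1 read by elimination, and 0 columns were left without a sample. Repeat columns were averaged per sample on the log2 scale for responses and arithmetically for RPKM levels, and count as 1 replicate. The 6 h TS4 column of crr1:CRR1 was left out.

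Values were analysed as log2(RPKM + 1), which understates the change of low models. The filter was a mean of at least 1 RPKM. All tests used limma 3.58.1 (R 4.3.3) with a trended empirical Bayes prior and Benjamini-Hochberg adjustment over 14306 models: time with strain as a block (6 residual degrees of freedom), response of crr1 (2) or CC-124 (4), and level of CC-124 (6). Same-strain samples share a strain by their labels, which is the pairing behind the block. The tests were tried on simulated data first. Depths came from the trial scale at which the length came out whole, within 0.05 base, for the largest share of 452 low models, 98.0%. That scale divided by a whole number gives whole lengths too. Depths are therefore upper bounds and lengths are lower bounds by a common whole factor.

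The members and lists were chosen with earlier results of these data known. Named models follow a rule: the 10 largest average responses, the 5 highest dark levels, the 10 highest minimum strain responses, the 3 widest ranges, 2 models either side of each threshold, and up to 5 per strain test by size. RefSeq genes of the assembly Chlamydomonas_reinhardtii_v5.5 gave locus tags only, so the 21 pathway lists drawn up by gene name, the named condition checks and the targeted gene matched 0 models, and no promoter or protein sequence was used here. Alternatives in pseudocount, filter, scaling, columns, strains and model are given in the closing section.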

Additional observations from a re-analysis of the deposited data

Results flagged for a closer look

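In 4 of 76 sets of 4 strain responses 1 strain stood far from the others, and it was CC-124 each time. The sets are those of the 38 named members, 13 of which were named for their CC-124 differences, Cre17.g707750.t1.1 and Cre08.g373200.t1.1 among them. Chance flags about 1 in 20 sets of normal values, and sets of 1 model are not independent. Cre07.g349200.t1.1 at 6 h had responses of 1.93 to 2.18 log2 units in the strains of crr1 background and 0.70 in CC-124, with 0.01 in the TS4 column of crr1:CRR1. Cre17.g707750.t1.1 at 6 h had 3.03 to 3.34 in those strains and 1.49 in CC-124, with -1.60 in that TS4 column. Its CC-124 light level was 0.488 RPKM, so the 1 added before the log lowers that CC-124 response. Cre08.g373200.t1.1 at 0.5 h had 1.54 to 1.71 in those strains and 0.15 in CC-124. Cre07.g320750.t1.2 at 6 h had 1.19 to 1.42 in those strains and 2.63 in CC-124, with 0.34 in that TS4 column.

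Members whose response differed in CC-124 from the mean of the other strains (limma interaction, adjusted p below 0.05) are given with the difference in log2 units, CC-124 minus the others. With the 6 h TS4 column of crr1:CRR1 included, 1 member was called at 0.5 h and 2 at 6 h. At 0.5 h it was 3.35 in Cre16.g679750.t1.1, 2.21 in Cre13.g603550.t1.1, 1.99 in Cre13.g569500.t1.1 and 0.999 in Cre02.g125850.t1.2 upward, and -1.52 in Cre17.g707750.t1.1 and -1.46 in Cre08.g373200.t1.1 downward. At 6 h it was upward by 2.60 in Cre07.g334150.t1.2, 2.03 in Cre01.g013450.t1.1, 1.90 in Cre03.g188400.t1.1, 1.87 in Cre13.g603550.t1.1, 1.74 in Cre17.g730550.t1.1 and 1.30 in Cre07.g320750.t1.2. Downward values at 6 h were -2.89 in Cre06.g310950.t1.1, -2.54 in Cre11.g477550.t1.1, -2.32 in Cre13.g584200.t1.1, -2.23 in Cre07.g342800.t1.2, -1.77 in Cre07.g354700.t1.2, -1.71 in Cre17.g707750.t1.1, -1.61 in Cre16.g650650.t1.2, -1.38 in Cre13.g579450.t1.2, -1.32 in Cre07.g349200.t1.1, -1.15 in Cre11.g480250.t1.2 and -1.09 in Cre02.g107200.t1.2. Among the named models of this list, the CC-124 light level was under 1 RPKM in Cre16.g679750.t1.1, Cre17.g707750.t1.1, Cre07.g334150.t1.2, Cre07.g342800.t1.2 and Cre07.g320750.t1.2. Their differences depend on the 1 added before the log. For Cre13.g603550.t1.1 the 6 h response was 5.63 in the TS4 column of crr1:CRR1, above the 5.30 of CC-124.

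In the 6 h TS4 column of crr1:CRR1, which the main comparisons left out, 164 of the 203 members, or 80.8%, were above the light oxic level that the rule used, against 52.9% of all models.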

How the results depend on the processing

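The rule found 203 members, 316 with a pseudocount of 0.1 (197 of them shared with the 203) and 97 with a pseudocount of 5 (91 shared). Under the other settings run it found between 180 and 225. The set moved more than the count, with 156 of the 203 shared with TS2 columns alone and 162 with TS1 columns alone. Without CC-124 174 were shared, and with no filter on low values all 203 were. With a pseudocount of 5, the members called higher were 116 at 0.5 h and 121 at 6 h, and those at another level in CC-124 were 27 lower and 7 higher. The count of members whose response differed in CC-124, 6 at 0.5 h and 17 at 6 h, became 1 and 6 with no filter on low values, 1 and 2 with the 6 h TS4 column of crr1:CRR1, and 11 and 39 with TS2 columns alone (3 strains). It was 3 at 0.5 h under median of ratios scaling. Leaving out 1 strain of crr1 background at a time gave 0 to 9 at 0.5 h and 1 to 28 at 6 h. The members called between 0.5 h and 6 h, 63 over all strains, were 36 to 74 with 1 strain left out, 9 with TS2 columns alone and 18 without the strain block. Without the replicate block, 173 and 181 members were called higher at 0.5 h and 6 h. The counts of members lower in CC-124 stayed between 53 and 66 under all other settings run. Of 1208 values of named members under alternatives, 0 turned their direction and 80 lost the call, 20 of them with a pseudocount of 5 and 16 without the block. These values are the 0.5 h and 6 h responses, which the rule required to be above 0 in each strain, so nothing is read from the 0. The causes were not tested. The planned promoter motif count was not run, because no promoter sequence was given. Depth limits the 13 members with a light oxic column of under 10 reads. Whether repeat columns of a sample came from separate cultures is not stated in the labels.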

Other observations

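Beside the members stand models that met all conditions but 1. The mean 0.5 h response was under 1 log2 unit in 211 models, and the mean 6 h response was under 1 in 84. In 20 models the difference between 6 h and 0.5 h was 1 or more, and in 15 it was -1 or less. In only 9 models did a strain fail to lie above its light level while the means passed. Of the failures in these 9, 2 were at 0.5 h, both in crr1, and at 6 h there were 4 in CC-124, 2 in crr1dCys, 2 in crr1 and 0 in crr1:CRR1.

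In the light, 3 members were listed at 0 in at least 1 sample, 2 in crr1:CRR1 and 2 in CC-124, and no member was listed at 0 in any dark sample used by the rule.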
